A study of Mus musculus with 81 samples.

Results

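The genes described belong to the insulin-like growth factor (IGF) system in single cells of the embryonic mouse pancreas. They are the ligand gene Igf1, the receptor genes Igf1r and Igf2r, and the binding protein genes Igfbp2 to Igfbp7. The 9 genes were taken by symbol from a table of 22869 gene symbols, and for each the transcript row with the highest mean over cells was used. The cells came from wild-type CD1 embryos at embryonic day 13.5, with no treatment and no second genotype, and their pancreata had been dissociated with trypsin. Each of the 81 cells gave a single library. Since no embryo or animal is named in the labels, all 81 cells count as a single sample, without any test, and each SD is a spread over cells.

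IGF1 and IGF2 are secreted growth factors that signal through the tyrosine kinase receptor encoded by Igf1r. The product of Igf2r, which is also the mannose 6-phosphate receptor, carries IGF2 to lysosomes and does not signal as a kinase. The IGF binding proteins hold the ligands outside the cell, and can keep them from the receptor or carry them to it. In mice Igf2 and Igf2r are imprinted genes that act in opposite directions on fetal growth.

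Values are RPKM, reads scaled by transcript length and by library size, and a gene was called detected in a cell at 1 RPKM. The reads per cell, estimated from the steps between low values, had a median of 3531521, and 77 cells held between 1664839 and 5390988. In 4 shallow cells (C3, C61, C94 and C43) the estimate was at most 419257 and at least 19776 reads. In a cell of median depth 1 RPKM stood for 40.3 reads of Igf1r, 13.5 reads of Igfbp4 and 3.94 reads of Igfbp7, so low values of the short binding protein transcripts rest on few reads. Cells were sorted into classes by clustering on other genes, with the 9 genes and the rest of the IGF pathway list left out, and clusters were named from fixed markers. C3 reached 6 of 14 leukocyte and 6 of 20 mesenchyme markers, and was left unnamed because it was shallow and none of the leukocyte markers was among its 10 leading genes. There were 4 leukocyte-like cells, 4 epithelial-like cells, 2 endocrine-like cells, 2 endothelial-like cells, 1 mesothelial-like cell (C37, on 3 of 7 measured markers) and 1 unnamed cell (C3), and 67 mesenchymal-like cells.

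The class names rested on their own marker lists, while markers of mesenchyme were present in every class. The 20 measured mesenchyme markers summed to 505 to 1445 RPKM in leukocyte-like cells, 365 to 2673 RPKM in epithelial-like cells, 167 and 848 RPKM in the endocrine-like cells, 944 and 1209 RPKM in the endothelial-like cells, and 348 to 2954 RPKM in mesenchymal-like cells. Vim is on that list, and 6 of the 20 markers were at 0 in all cells of each of the small classes, Lum, Thy1 and Foxf1a in every one of them. None was at 0 in all mesenchymal-like cells, which are 67 cells against 2 to 4 in these classes. At the level used for naming, the mesenchymal-like clusters 2, 3, 7 and 8 reached 5, 6, 9 and 7 of the 20 markers. The leukocyte-like, epithelial-like, endocrine-like and endothelial-like clusters reached 5, 6, 6 and 7, so these counts overlapped. The mesenchymal-like clusters reached no marker of the leukocyte, epithelium, endocrine or endothelium list. The part of mesenchymal RNA in the values of the small classes was not tested. Markers of the small classes were also present in some mesenchymal-like cells. There, epithelial markers summed to at most 348 RPKM (median 0.844, up to 5 of 14 markers at 10 RPKM), endocrine markers to at most 676 RPKM (median 4.03, up to 4 of 19), endothelial markers to at most 196 RPKM (median 0, up to 1 of 12) and leukocyte markers to at most 51.2 RPKM (median 0.862, up to 1 of 14). Their part in the mesenchymal-like values was not tested. In leukocyte-like cells the highest sums were 0.202 RPKM of epithelial, 132 RPKM of endocrine and 40.5 RPKM of endothelial markers.

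Sequences are shown for the alternative exon of Igf1 on which the transcript rows differ, and for the promoters of the binding protein genes that, among Igfbp2 to Igfbp7, were highest (Igfbp4 and Igfbp5) and lowest (Igfbp6) in these cells. The exon is 52 bases of coding sequence on mouse chromosome 10 (GRCm38, chr10:87915298-87915349, + strand), and is given in capitals from GENCODE transcripts with 30 coding bases before it and the 23 coding bases after it.
Igf1 exon: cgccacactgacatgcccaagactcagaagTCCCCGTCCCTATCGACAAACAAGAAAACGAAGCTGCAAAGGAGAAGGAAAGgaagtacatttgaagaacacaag
The promoter windows run from 250 bases before the RefSeq gene start to 50 bases after it (GRCm38.p6, 5′ to 3′ on the gene's strand), and all 9 genes had such a window in RefSeq. Capitals mark matches to the TATA-box letters TATAAA, to the GC-box letters GGGCGG and to the E-box letters CANNTG, each searched on both strands.
Igfbp4 (chr11:99040994-99041293, + strand): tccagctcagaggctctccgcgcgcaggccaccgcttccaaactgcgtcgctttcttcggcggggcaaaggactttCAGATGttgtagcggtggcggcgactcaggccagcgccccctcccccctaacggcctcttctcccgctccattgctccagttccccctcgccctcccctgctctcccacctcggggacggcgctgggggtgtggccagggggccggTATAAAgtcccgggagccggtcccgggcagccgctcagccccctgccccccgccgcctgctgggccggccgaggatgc
Igfbp5 (chr1:72874816-72875115, - strand): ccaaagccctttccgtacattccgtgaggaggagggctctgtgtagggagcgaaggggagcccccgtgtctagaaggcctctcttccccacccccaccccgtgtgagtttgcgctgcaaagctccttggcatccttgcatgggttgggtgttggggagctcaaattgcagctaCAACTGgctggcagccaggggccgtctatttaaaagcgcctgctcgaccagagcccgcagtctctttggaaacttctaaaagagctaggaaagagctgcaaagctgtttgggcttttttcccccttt
Igfbp6 (chr15:102143936-102144235, + strand): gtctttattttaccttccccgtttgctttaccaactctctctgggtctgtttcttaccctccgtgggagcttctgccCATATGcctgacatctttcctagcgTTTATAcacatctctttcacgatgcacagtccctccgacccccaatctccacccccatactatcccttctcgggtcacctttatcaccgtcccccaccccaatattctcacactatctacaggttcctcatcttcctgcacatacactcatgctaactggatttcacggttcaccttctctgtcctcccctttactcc
Of these windows, that of Igfbp4 held TATAAA at 28 bases before the start, and that of Igfbp6 held it on the opposite strand, while that of Igfbp5 had no match to it. None of the 3 windows shown held GGGCGG, and each held CANNTG at a single position, with no overlap between motifs. TATAAA was in 2 of the 9 genes' windows and in 13.6% of 32851 RefSeq windows, GGGCGG was in 4 of 9 and in 35.7%, and CANNTG was in 7 of 9 and in 72.3%. A match describes letters in the window.

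Most of the 9 genes were detected widely in the dissociated pancreas, and the receptor Igf2r and the binding proteins Igfbp4 and Igfbp5 were found in the most cells. At 1 RPKM, 7 of the 9 genes were detected in at least 50% of the cells, against 22.6% of the 13237 genes that were above 0 in at least 3 cells. Counting for Igfbp7 only the reads beyond those of a gene that overlaps it, described with Igfbp7, left 6 of the 9. That count takes off every read of the overlapping gene, so it is a lower limit for Igfbp7. Igf2r and Igfbp4 were each detected in 78 of 81 cells (96.3%, exact Clopper-Pearson 95% interval 89.6 to 99.2%). Igfbp5 followed with 74 cells, Igf1r with 68, Igf1 with 57, Igfbp3 with 53 and Igfbp7 with 43. Igfbp2 was detected in 25 cells (30.9%, interval 21.1 to 42.1%) and Igfbp6 in 2 (2.47%, interval up to 8.64%). The intervals cover counting error only.

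In order of median level over the 81 cells, which RPKM scales by transcript length, Igfbp4 stood first at 82.4 RPKM, with Igfbp5 at 54.996, Igf2r at 26.4, Igf1 at 22.3, Igf1r at 7.85, Igfbp3 at 5.55 and Igfbp7 at 1.74 RPKM. Igfbp2 and Igfbp6 had a median of 0. The middle 50% of cells of neighbours in this order overlapped, as with Igfbp4 (38.7 to 161 RPKM) and Igfbp5 (17.5 to 102 RPKM). Igf2, the other ligand of the system, had a median of 96.3 RPKM and was detected in 78 cells.

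**Figure D1:**
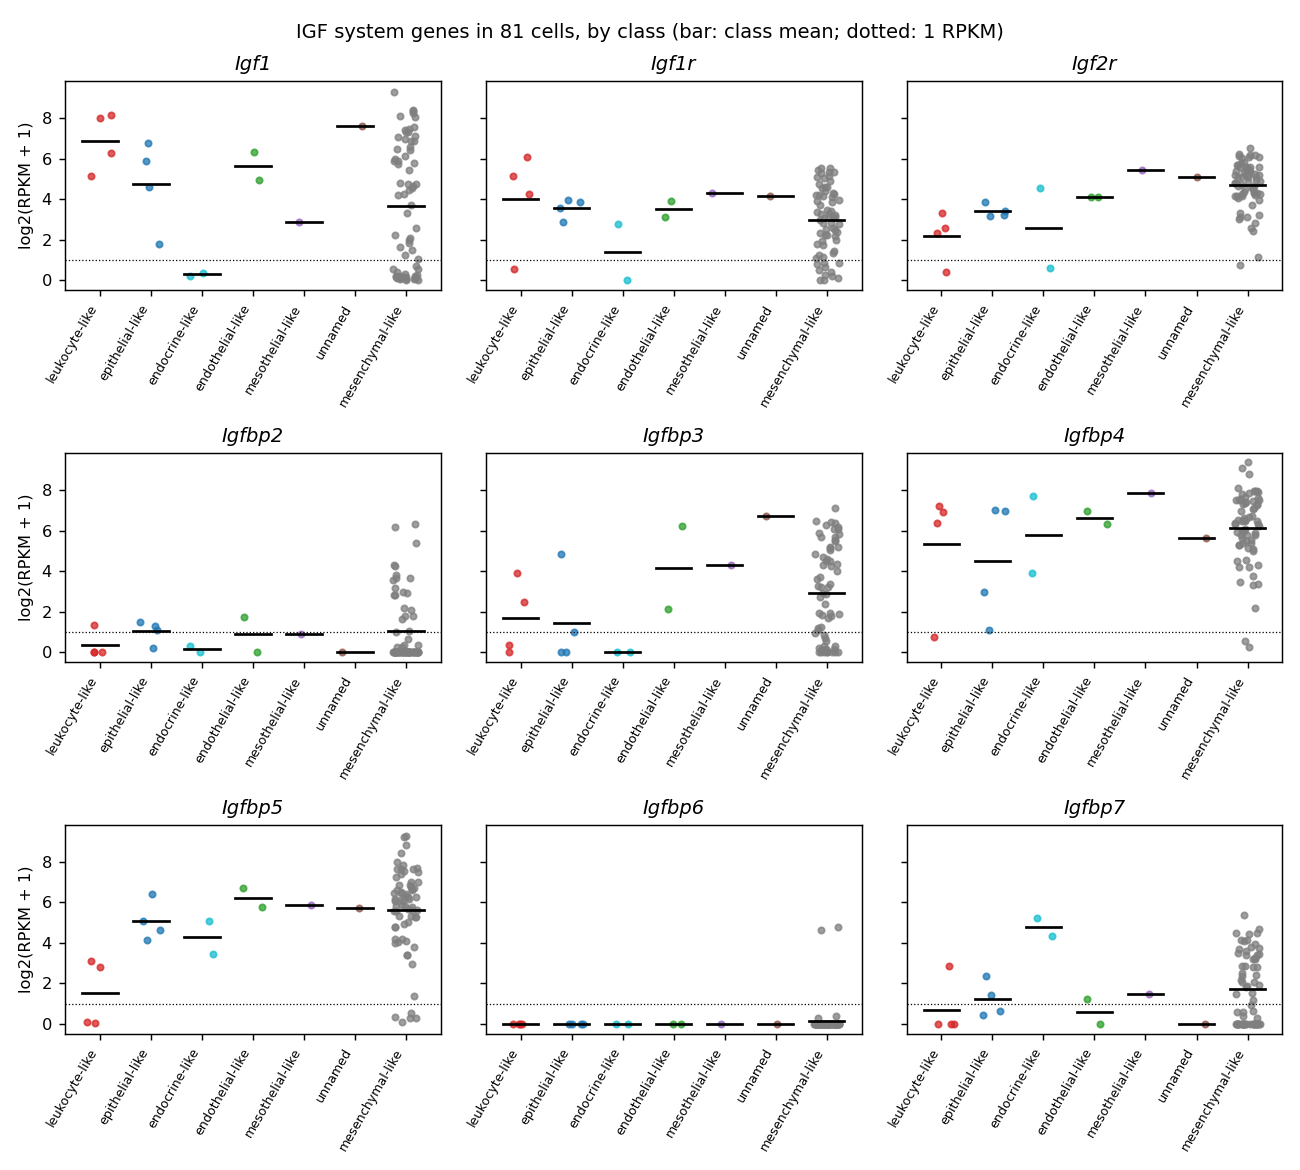
Level of each of the 9 genes on the log2(RPKM + 1) scale in the 81 cells, with 1 point per cell, 1 column per class and a bar at the class mean. Igfbp4 and Igf2r lie above 1 RPKM in 78 cells, and the 4 leukocyte-like cells sit low for Igfbp5 and high for Igf1.

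Igf1, which encodes the ligand that mediates much of postnatal growth, varied more between cells than the other 8 genes. It was under 1 RPKM in 24 cells, from 1 to under 10 RPKM in 12, and at 10 RPKM or more in 45, of which 20 reached 100 RPKM. The highest values were 622.9 RPKM in C90 and 337.4 RPKM in C81, both mesenchymal-like, and Igf1 was 0 in C15 and C25. The SD on the log2(RPKM + 1) scale was 3.06 over the 67 mesenchymal-like cells, against at most 2.32 for the other 8 genes. Igf1 exceeded Igf2 in 17 of the 81 cells, 13 of them mesenchymal-like.

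The leukocyte-like cells held Igf1 at 252.8, 76.4, 34.3 and 281.0 RPKM in C2, C31, C36 and C54, against a median of 17.4 RPKM in mesenchymal-like cells, whose values ran from 0 to 622.9 RPKM. The lowest leukocyte-like value lay above 41 of the 67 mesenchymal-like cells, and the classes overlapped. The epithelial-like cells C43, C47, C82 and C95 had 58.3, 23.4, 2.45 and 107 RPKM of Igf1, and the endothelial-like cells C22 and C72 had 30.1 and 80.5 RPKM. The endocrine-like cells C24 and C56 had 0.291 and 0.172 RPKM. Of the mesenchymal-like cells, 49 were above both.

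The table gives 5 transcript rows for Igf1 (mm9, chr10:87321801-87399792, + strand, for the longest), and the differences between rows that share most reads show where the reads lie. The 52-base exon printed above separates rows of 7104 and 7052 bases. Among the 45 cells with Igf1 at 10 RPKM or more, that exon held 43 net reads in C54, a leukocyte-like cell with about 5635 Igf1 reads, and 28 in C86, a mesenchymal-like cell with about 4918. C81 had 2 and the other 42 cells had 0. If reads fell evenly along the transcript, 0.732% of them would lie in this exon. They did not fall evenly in every cell. A shorter row, described below, was at 0 in 17 of the 45 cells, such as C2 and C40 with about 5104 and 5936 Igf1 reads. The Igf1 reads of those cells lay outside that row, so a count of 0 in the exon was not read as skipping.

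The first exon of the rows that start upstream (mm9, position 87321801, against 87323856 for the downstream start) held reads in more cells. The upstream rows exceeded the downstream rows by at least 3 net reads in 16 of the 45 cells and by 1 or 2 in 3, and in none was the difference below 0. C81 stood apart with 435 net reads, and the next values were 85 in C54, 83 in C90 and 70 in C72. A net count is a difference between the exons of the upstream and downstream starts, so reads from the 2 can cancel. A further row, with an end at position 87378515 (mm9) before the long 3′ end, was at 0 in 17 of the 45 cells and at 10 RPKM or more in 24, including all 16 cells with upstream reads. It exceeded the long row in 7 cells, such as C31 with 320 against 76.4 RPKM.

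**Figure D2:**
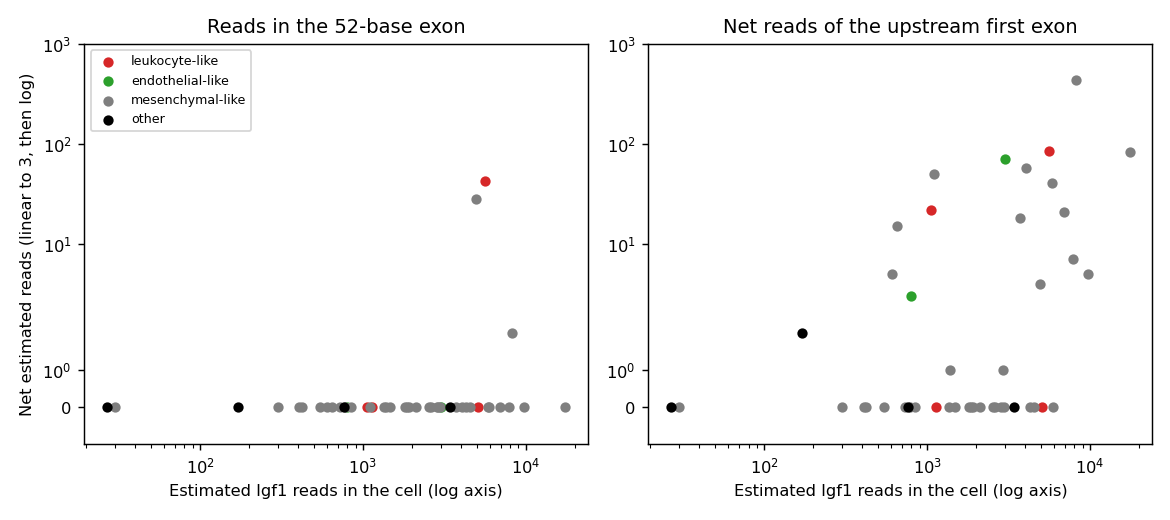
Net estimated reads in the 52-base exon (left) and of the upstream first exon (right) against estimated Igf1 reads, for the 45 cells with Igf1 at 10 RPKM or more, with 1 point per cell coloured by class. In the left panel C54 and C86 stand at 43 and 28 reads, while the right panel shows 16 cells with 3 or more and C81 at 435.

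The receptor genes differed in how evenly they were detected. Igf1r (mm9, chr7:75097143-75378553, + strand), which encodes the signalling receptor, ran from 0 in C91 to 65.9 RPKM in C31, and 35 of 81 cells reached 10 RPKM. Igf2r (mm9, chr17:12875272-12962572, - strand) ran from 0.339 RPKM in C31 to 90.8 RPKM in C19, and 63 cells reached 10 RPKM. Igf1r exceeded Igf2r in 16 cells, of which 9 were mesenchymal-like. The leukocyte-like cell C31 thus had the highest Igf1r and the lowest Igf2r of the 81 cells.

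Igf2r was 5.06, 0.339, 9.01 and 4.01 RPKM in the leukocyte-like cells C2, C31, C36 and C54, against a median of 29.1 RPKM in mesenchymal-like cells, of which 57 of 67 lay above the highest leukocyte-like value. In the epithelial-like cells it was 8.003, 8.35, 13.6 and 9.88 RPKM, for C43, C47, C82 and C95 in turn, and 56 of the 67 mesenchymal-like cells were higher than each of them. The endocrine-like cells C24 and C56 had 0.517 and 22.2 RPKM, and the endothelial-like cells had 16.3 and 16.1 RPKM in C22 and C72. Of these 12 cells, all but C56 lay under 17.9 RPKM, the lower quartile of the mesenchymal-like cells. Airn, a noncoding RNA transcribed from the opposite strand, overlaps the Igf2r row, and the counting is not stated to use strand. Airn was at 1 RPKM in 16 cells, with a highest value of 171.6 RPKM.

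Igf1r gave 0.489, 65.9, 34.5 and 18.1 RPKM in the leukocyte-like cells C2, C31, C36 and C54, against a median of 7.41 RPKM in mesenchymal-like cells. C31 was above every mesenchymal-like cell, while C2 was above 7 of the 67. The epithelial-like values of 6.31 to 14.6 RPKM and the endothelial-like values of 7.75 and 14.3 RPKM lay inside the mesenchymal-like range.

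Igfbp4 (mm9, chr11:98902574-98913957, + strand), whose product binds both ligands and is cut by the protease PAPP-A, was the most abundant binding protein transcript in 44 of 81 cells. Its highest values were 657.7 RPKM in C15 and 537.1 RPKM in the shallow cell C94, where the value stands for about 405 reads. It was under 1 RPKM in C35, C91 and C2. Igfbp5 (mm9, chr1:72904639-72921439, - strand), a binding protein also found in extracellular matrix, was the most abundant in 30 cells, with 610.0 RPKM in C73 and 586.2 RPKM in C35. Igfbp3 led in 6 cells and Igfbp7, which overlaps Polr2b, in 1, the endocrine-like C24. The leading binding protein made up a median of 67.3% of the summed RPKM of Igfbp2 to Igfbp7 in a cell, and that sum ran from 20.7 to 690.5 RPKM.

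Igfbp4 and Igfbp5 were both at 10 RPKM or more in 62 cells. Over the 81 cells their rank correlation was -0.14 and over the 67 mesenchymal-like cells -0.22, which is given as a description. C35 shows the extreme, with 0.183 RPKM of Igfbp4 and 586.2 RPKM of Igfbp5. No pair among the 36 pairs of the 9 genes reached a rank correlation of 0.3 in size, and the highest was 0.28 between Igf2r and Igfbp3. The genes of a cell share its library and depth.

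**Figure D3:**
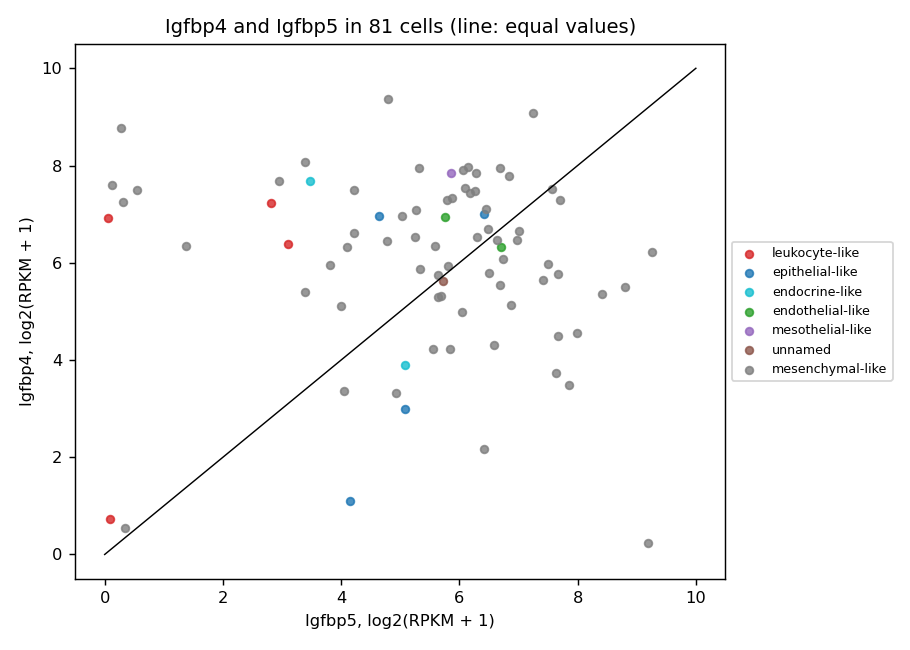
Igfbp4 against Igfbp5 on the log2(RPKM + 1) scale in 81 cells coloured by class, with a line at equal values. Most cells lie in the upper right, where both are at 10 RPKM or more (62 cells), and the leukocyte-like cells lie in the left part. C35 is at the lower right.

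Igfbp5 had the largest difference between the leukocyte-like and the mesenchymal-like class means among the 9 genes. It was 0.0587, 7.59, 0.0356 and 5.99 RPKM in C2, C31, C36 and C54, against a median of 65.7 RPKM in mesenchymal-like cells, of which 60 of 67 lay above the highest leukocyte-like value. The endothelial-like cells C22 and C72 had 53.1 and 103 RPKM, the epithelial-like cells had 16.7 to 84.1 RPKM and the endocrine-like cells 32.7 and 10.1 RPKM. In contrast Igfbp4 was 82.4, 120 and 148 RPKM in the leukocyte-like cells C31, C36 and C54 and 0.669 RPKM in C2, against a median of 80.6 RPKM in mesenchymal-like cells. In the endocrine-like cells C24 and C56 Igfbp4 was 13.9 and 204 RPKM.

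Igfbp3 (mm9, chr11:7106096-7113926, - strand), whose product is the main IGF carrier in adult serum, was detected in 46 of the 67 mesenchymal-like cells, up to 135.3 RPKM in C87. The value of 103 RPKM in the shallow cell C3 stands for about 4.93 reads. Of the epithelial-like cells, C47 had 27.4 RPKM while the other 3 were at 0.990 RPKM or lower, and it was listed at 0 in both endocrine-like cells. The endothelial-like cells C22 and C72 had 3.33 and 74.6 RPKM.

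Igfbp2 (mm9, chr1:72871054-72899045, + strand), a fetal binding protein, was at 0 in 47 cells and at 10 RPKM or more in 9, which were all mesenchymal-like. C25 had 80.1, C29 71.6 and C8 40.4 RPKM. Igfbp2 lies tail to tail with Igfbp5 on chromosome 1, with 5593 bases and no other row of the table between them. The neighbours were detected together in 22 cells, Igfbp2 without Igfbp5 in 3 and Igfbp5 without Igfbp2 in 52, and their rank correlation over the 81 cells was 0.04.

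Igfbp6 (mm9, chr15:101974617-101979943, + strand), whose product prefers IGF2, was detected in C51 at 26.8 RPKM and C14 at 23.8 RPKM, about 114 and 117 reads. Both cells were mesenchymal-like. The other values above 0 were 0.307 RPKM in C49 and 0.216 RPKM in C18, each 0.867 reads by the estimate. A value above 0 needs at least 1 read, so the read estimates for Igfbp6 run low. C49 shares its second library index with C51, and C18 shares its own with C14. The remaining 77 cells were listed at 0, and 25 of these also share a first or second index with C51 or C14. The part of shared indexes in the low values was not tested.

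Igfbp7 (mm9, chr5:77778265-77837070, - strand), a secreted protein of low affinity for IGFs, gave values that could not be separated from those of the gene beside it. Polr2b, a subunit of RNA polymerase II, runs towards it on the other strand, and the rows of the genes share 89 bases at their 3′ ends. All 43 cells with Igfbp7 at 1 RPKM also had Polr2b at 1 RPKM. In the 22 cells with Polr2b under 1 RPKM the highest Igfbp7 value was 0.506 RPKM. Polr2b had a median of 20.4 RPKM where Igfbp7 was detected and 0.204 RPKM in the other 38 cells. Of those 38 cells, 16 had Polr2b at 1 RPKM or more, so Polr2b was also detected without Igfbp7. The highest Polr2b value, 366.7 RPKM, was in C35, where Igfbp7 was listed at 0.

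The estimated reads of the neighbours fell into different proportions. Of the 43 cells, 24 had fewer than 10 Igfbp7 reads per 100 Polr2b reads, 10 had from 10 to under 75, and 8 had from 75 to 100. The endocrine-like cell C56 alone had more, with 89.6 Igfbp7 and 30.4 Polr2b reads, so that at least 59.2 of its Igfbp7 reads were not counted for Polr2b. C24, the other endocrine-like cell, had 36.7 RPKM of Igfbp7 but 141 reads against 879 of Polr2b, and C59, the highest cell at 40.97 RPKM, had 117 against 189. Since strand is not stated to be used in the counting, reads in the shared bases cannot be told apart.

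**Figure D4:**
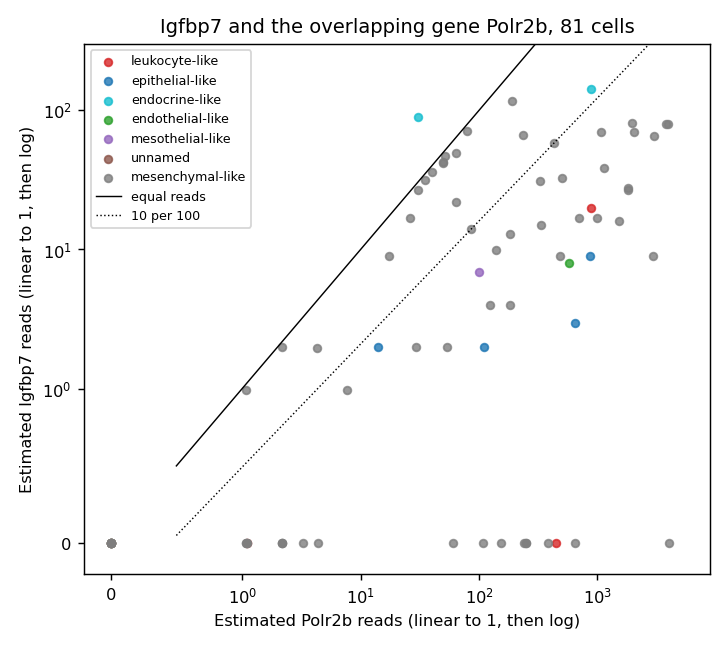
Estimated reads of Igfbp7 against those of the overlapping gene Polr2b in 81 cells coloured by class, with lines at equal reads and at 10 Igfbp7 reads per 100 Polr2b reads. C56 lies above the line of equal reads, 8 of the 43 cells with Igfbp7 at 1 RPKM follow just under it, and 24 lie below the dotted line.

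Counted over class means on the log2(RPKM + 1) scale, a difference of at least 1 was used as the threshold of description. Leukocyte-like cells were above mesenchymal-like cells for Igf1 (6.89 ± 1.44 against 3.69 ± 3.06, SD over 4 and 67 cells, difference 3.20) and Igf1r (difference 1.06), and below for Igfbp5 (1.51 ± 1.67 against 5.63 ± 2.12, difference -4.12), Igf2r (2.17 ± 1.24 against 4.72 ± 1.15, difference -2.55), Igfbp3 (-1.24) and Igfbp7 (-1.03). That makes 2 genes higher and 4 lower of 9, where 12.6% of the 13237 genes were higher and 14.4% lower by as much. Such shares, here and for the other classes, are over genes not matched for level. A gene with a mesenchymal-like mean under 1 cannot be lower by 1. With each leukocyte-like cell left out in turn, the Igf1r difference ran from 0.37 (without C31) to 2.20 (without C2), that of Igfbp3 from -1.98 to -0.68 and that of Igfbp7 from -1.74 to -0.79, so these 3 fell under the threshold without 1 or more of the cells. With only the Igfbp7 reads in excess of those of Polr2b counted, the Igfbp7 difference was 0 in leukocyte-like and in endothelial-like cells, since C56 alone held such reads. That count takes off every Polr2b read, although the rows share only 89 bases. It is a lower limit that sets Igfbp7 to 0 in all cells but C56, so nothing is read from the difference of 0. In a clustering on more genes the class took in C3 and C37, and with these 6 cells the Igf2r difference was -1.51 and that of Igfbp5 -2.70.

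Epithelial-like and endocrine-like cells together (6 cells) were below mesenchymal-like cells for Igfbp3 (0.97 ± 1.93 against 2.93 ± 2.32, difference -1.96), Igf2r (3.14 ± 1.34 against 4.72 ± 1.15, difference -1.57) and Igfbp4 (difference -1.18), 3 of 9 genes, where 4.66% of all genes were lower and 17.6% higher. The Igfbp4 difference ran from -1.73 (without C56) to -0.41 (without C43) with each cell left out in turn. It fell under the threshold without C24, C43 or C82. In the shallow cell C43 the Igfbp4 value of 1.15 RPKM stands for about 1.84 reads. Without the shallow cells the Igfbp4 difference was -0.36, and 2 of the 9 genes passed the threshold. The Igfbp3 and Igf2r differences stayed at -1.07 or lower with each cell left out. Taken apart, epithelial-like and endocrine-like cells went opposite ways for Igf1 (1.07 and -3.39), Igf1r (0.61 and -1.54) and Igfbp7 (-0.49 and 3.06). For Igfbp4 the differences were -1.61 and -0.33. Endothelial-like cells (2 cells) were above for Igf1 (difference 1.97) and Igfbp3 (1.25) and below for Igfbp7 (-1.13), where 29.5% of all genes were higher and 6.07% lower, so that 2 higher genes of 9 was near the background. Without C72 the Igfbp3 difference turned to -0.82, and without C22 Igfbp7 no longer passed the threshold. The median difference over the 9 genes was -0.80 in leukocyte-like, -0.42 in epithelial-side and 0.52 in endothelial-like cells, and over all 13237 genes it was -0.16, 0.09 and 0.04 in the same order.

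Among the 4 clusters of mesenchymal-like cells, the 5 cells of cluster 7 (C8, C11, C12, C29 and C41, with Dhrs3 and Cpe as its first leading genes) differed from the others in the medians of several genes, which were picked after their values were seen. Igf1 was detected in all 5, with a median of 135 RPKM, against medians of 0.638, 11.999 and 14.4 RPKM in clusters 2, 3 and 8. Igfbp2 was detected in 4 of the 5, with a median of 10.997 RPKM, and had a median of 0 in the other 3 clusters. Igfbp5 had a median of 230 RPKM in cluster 7 and 86.7, 56.4 and 42.5 RPKM in clusters 2, 3 and 8, while Igfbp4 had 33.98 RPKM against 53.9, 87.1 and 91.4 RPKM. Igf1r had a median of 16.6 RPKM in cluster 7, against 8.21, 6.97 and 7.78 RPKM, and Igfbp7 had 6.34 RPKM against 0, 0.506 and 2.79 RPKM. The ranges of the clusters overlapped for each of these genes, and no such difference was tested.

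The clusters were spread unevenly over the cell numbers given in the labels. Cells numbered 1 to 48 made up all 5 cells of cluster 7, against 1 of 11 in cluster 2, 10 of 31 in cluster 3 and 15 of 20 in cluster 8. Among mesenchymal-like cells numbered 1 to 48, the median of Igf1 was 135 RPKM in the 5 cells of cluster 7 and 2.55 RPKM in the other 26. In the same cells Igfbp5 had 230 and 54.6 RPKM, Igfbp2 10.997 and 0 RPKM, Igf1r 16.6 and 6.74 RPKM, Igfbp7 6.34 and 3.89 RPKM, and Igfbp4 33.98 and 97.5 RPKM. The direction of these medians was the same within that range of numbers. The cluster 7 medians come from the same 5 cells, so this is not a separate observation. The part of the cell number in these differences was not tested.

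**Figure D5:**
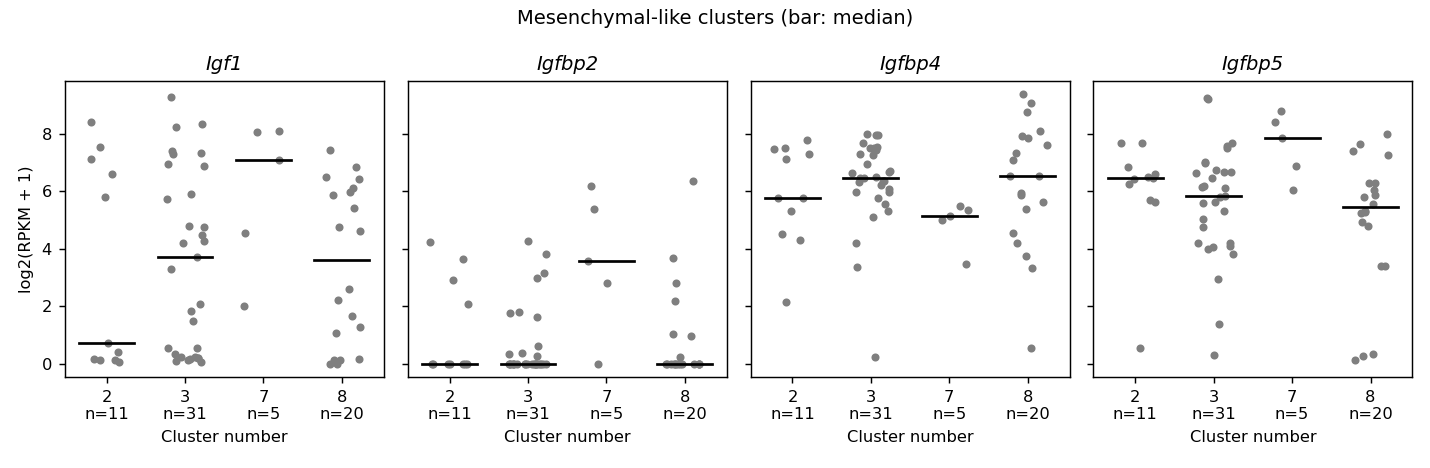
Igf1, Igfbp2, Igfbp4 and Igfbp5 on the log2(RPKM + 1) scale in the 4 mesenchymal-like clusters, with 1 point per cell and a bar at the median. By its medians cluster 7, with 5 cells that are all numbered 1 to 48, lies high for Igf1, Igfbp2 and Igfbp5 and low for Igfbp4, and the clusters overlap.

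Between 2 and 8 of the 9 genes were detected in a cell, with a median of 6, and C35 was the cell with 2. Detection was also compared by the cell number in the labels. Igf1 was detected in 28 of 40 cells numbered 1 to 48 and in 29 of 41 cells numbered 49 to 96, and Igf1r in 34 and 34. Igfbp7 was detected in 27 of 40 (67.5%, interval 50.9 to 81.4%) and 16 of 41 (39.02%, interval 24.2 to 55.5%), and Igfbp2 in 16 of 40 (interval 24.9 to 56.7%) and 9 of 41 (interval 10.6 to 37.6%). Among mesenchymal-like cells the shares for Igfbp7 were 74.2% and 36.1%. Whether the number marks a batch is not given in the sources used here, and its part in the Igfbp7 values and in the clusters was not tested.

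For each gene detected in at least 20 cells, the 3 genes with the highest rank correlation over the 81 cells were listed. This is a description, since the genes of a cell share its library and depth. Igf2r had the strongest after Igfbp7, with Gpc3, a glypican of the cell surface, at 0.54, the imprinted cell cycle inhibitor Cdkn1c at 0.49 and the collagen gene Col1a2 at 0.49. Within the 67 mesenchymal-like cells these were 0.45, 0.36 and 0.36. Igf1 was most like Maf, a transcription factor, at 0.49, with Plagl1 at 0.40 and Evi5 at 0.39. Igfbp5 was most like Cyp26b1, an enzyme that breaks down retinoic acid, at 0.42, with Gsta4 next, and Igfbp4 was most like Axl, a receptor tyrosine kinase, at 0.42. Igfbp3 gave Zmym4, Hoxa5 and Sept11 at 0.40 to 0.44, and within the 67 mesenchymal-like cells these were 0.41, 0.38 and 0.24. For Igfbp7 the first was its overlapping neighbour Polr2b at 0.56, followed by Amd1 and Amd2, near-identical copies with the same value of 0.42.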

How the data were processed

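Single cells (81) from pancreata of wild-type CD1 embryos at embryonic day 13.5 were captured by microfluidics, and their cDNA was amplified with the SMARTer kit and made into libraries with Nextera XT, per the labels. CASAVA 1.8.2 and the build mm9 are named by the submitters' processing notes. The sources used here give neither the aligner nor the counter, nor whether strand was used. The table deposited by the authors holds 1 value per transcript and cell, taken as RPKM although the unit is not named: values times transcript length (GENCODE vM21) fall on whole reads within 0.15 for a median of 76.6% of low values, lowest 71.6%. Its worth of 1 read gave the estimated depth. The step search and the class difference were tested on simulated data. The simulated reads used the same transcript lengths as the search, so errors in length were not covered. The simulated class held more cells than the leukocyte-like and endothelial-like classes, so classes of their size were not covered.

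Each gene was represented by its row of highest mean, and detection was set at 1 RPKM. From genes above 0 in at least 3 cells, 1000 variable genes gave 10 principal components and 10 Ward clusters (scipy 1.17.1), named where the largest share of a marker list, with at least 3 markers, reached 10 RPKM in at least 50% of the cells. A cluster stayed unnamed where the median reads of all cells were over 3 times its own and none of that list's markers was among its 10 leading genes. No doublet caller was run. The labels name no animals, so no p-value was computed. The pseudocount was 1, so that folds of low genes are understated. Genes named beyond the 9 are those of a fixed pathway list and the 3 nearest by rank correlation among genes detected in at least 20 cells, of which the text gives a part. C24, C35, C56 and other single cells, and the genes Polr2b and Airn, were chosen after their values were seen, and the naming rules were set with values known. The members and lists were chosen with earlier results of these data known. Intervals are exact at the 95% level.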

Additional observations from a re-analysis of the deposited data

How the results depend on the processing

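No paired analysis was possible because the study has 1 group. The count of 7 genes detected in at least 50% of cells was 6 or 7 above 0, at 5 RPKM, in either range of cell numbers, without shallow cells, with rows summed or averaged, and with Igfbp7 counted from reads in excess of Polr2b, which was chosen after seeing the data. At 10 RPKM it was 4. Of the 9 genes, the count past the threshold between epithelial-side and mesenchymal-like cells was 3, but 0 with a pseudocount of 10 and 1 by shares of detected cells (25 points), and from 2 to 6 with each cell left out in turn. For epithelial-like cells without endocrine-like cells it was 4, with 1 higher and 3 lower. For leukocyte-like cells the count of 6 became 3 with a pseudocount of 10 and 3 by shares, and 4 to 6 with each cell left out. For endothelial-like cells the count of 3 became 0 with a pseudocount of 10, and stayed at 3 with either cell left out, with 3 higher without C22 and 1 higher without C72. With Igfbp7 from excess reads the counts were 3, 5 and 2. Shares of all genes were computed for the main settings only. None stands beside the counts under the other settings, so these cannot be set against a background. With 8 clusters no endothelial-like class formed. Of 24 nearest genes, 11 stayed in the top 3 over mesenchymal-like cells and 11 with Pearson's correlation, and 19 without shallow cells. Among single gene differences, 162 of 168 alternatives kept direction, 4 reversed and 2 were 0. Part of the 168 could not change a value. Keeping only genes detected in at least 20 cells left each difference as it was. So did summed rows for genes with 1 row, and excess reads for genes other than Igfbp7. The alternatives that kept direction include an Igfbp3 difference of -0.0031, given below. The 2 at 0 were Igfbp7 in leukocyte-like and endothelial-like cells, counted from excess reads, a lower limit that leaves Igfbp7 above 0 in C56 alone. By shares the difference was 2.99 points for Igfbp4 in epithelial-side cells and -8.58 points for Igf1r in leukocyte-like cells. With a larger set of clustering genes, and with 8 clusters, the leukocyte-like class had 6 cells instead of 4, through C3 and C37. There Igfbp3 was 0.0331 and -0.0031, Igf2r -1.51 and -1.49 instead of -2.55, and Igfbp5 -2.70 and -2.71 instead of -4.12. With 12 clusters, 8 cells left the mesenchymal-like class under pericyte and smooth muscle markers. Igfbp3 in endothelial-like cells was -0.82 without C72 and 3.31 without C22. The cause was not tested. Low values of the short transcripts Igfbp2, Igfbp6 and Igfbp7 are limited by depth.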

Other observations

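Other genes of the IGF pathway, from a list of 54 genes with 45 outside the 9 described, were detected in at least 50% of the cells in 13 of 45 cases (28.9%), against 22.6% of the 13237 genes above 0 in at least 3 cells, a filter that 33 of the 45 passed. Nothing is read from that difference. Grb10, an imprinted adaptor that binds the receptor, was detected in all 81 cells with a median of 91.3 RPKM, and its class mean was -2.05 log2 in leukocyte-like relative to mesenchymal-like cells. The mRNA-binding proteins Igf2bp1, Igf2bp2 and Igf2bp3, which bind Igf2 mRNA, were detected in 53, 64 and 66 cells. Igf2bp2 was 1.37 log2 higher in the 6 epithelial-like and endocrine-like cells than in mesenchymal-like cells, and Igf2bp3 was 1.90 higher in the 2 endothelial-like cells. Cyr61, a matrix protein of the CCN family, was detected in 76 cells with a median of 221 RPKM and differed by -4.36 in leukocyte-like cells. There Cyr61 ran from 0.51 to 268 RPKM, against a median of 251 RPKM in mesenchymal-like cells, so the classes overlapped. Foxo1, a transcription factor restrained by insulin and IGF signalling, differed by 2.68 in the endothelial-like cells. These genes are a part of the 33. Of the 33, 3 were higher and 4 lower by at least 1 log2 in leukocyte-like cells, where 12.6% and 14.4% of all genes were. In epithelial-side cells 3 were higher and 4 lower (17.6% and 4.66% of all genes). In endothelial-like cells 9 were higher and 5 lower (29.5% and 6.07%). Igfbp1, Igfals, Pappa2 and Stc2 were listed at 0 in all 81 cells. Ins1 was detected in 1 cell, at 31.8 RPKM, and Ins2 in none, its highest value being 0.636 RPKM.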
